A study of Homo sapiens with 12 samples.

Results

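The chromatin response of p30-expressing KO-52 cells to tunicamycin was read from a pair of ATAC-seq peak lists, 1 from p30 cells in DMSO and 1 from p30 cells given tunicamycin at 2 µg/mL for 8 h, each made by the authors from 2 pooled replicates. All peaks of both lists on chromosomes 1 to 22 and X were merged wherever they overlapped by at least 1 bp, which gave 237637 regions, of 355051 regions when all 6 lists of the series are merged. A region was called gained if it held a peak in the tunicamycin list only, lost if it held a peak in the DMSO list only, and shared if it held both. KO-52 is a human acute myeloid leukaemia line with mutations in both of its own CEBPA alleles. The p30 cells were transduced with p30, the short isoform of the transcription factor C/EBPα that lacks the N-terminal activation part, fused to an oestrogen receptor fragment (ERT2), and sorted for GFP, so that nuclear entry of the fusion could be set off with 4-hydroxytamoxifen. By the study's methods 4-hydroxytamoxifen was given before experiments on ERT2 lines, also to empty vector (EV) controls, and p42 cells received the full-length isoform in the same way. The EV and p42 cells were treated with the same dose for the same time, the labels give no time for DMSO, and their lists share no library with those of p30 cells. With the replicates pooled in each list, no comparison here has a replicate check and no p-value is given, and every interval covers counting error only.

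Tunicamycin blocks the first step of N-linked glycosylation, so that unfolded glycoproteins build up in the endoplasmic reticulum (ER) and the unfolded protein response starts through the sensors PERK, IRE1 and ATF6. PERK phosphorylates eIF2α, which lowers general translation while raising that of ATF4, a bZIP transcription factor that binds DNA with C/EBP partners at composite elements and drives genes for amino acid supply, aminoacyl-tRNA synthetases and stress-induced death. IRE1 splices XBP1 mRNA, and XBP1 and cleaved ATF6 drive chaperones and ER-associated degradation (ERAD). ATAC-seq marks the accessible DNA that the transposase Tn5 can cut, and a peak is a stretch where cuts pile up above the local background.

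The sequence that separated gained from lost regions most was the 8-letter core of the composite ATF4 element, TGATGCAA, which reads TTGCATCA on the other strand. Of the 4 strongest gained and 2 strongest lost regions that hold this core, 3 gained and 1 lost are shown first, and then the gained regions upstream of SESN2 and HSPA5, which were chosen after their values were seen because they lie near known stress genes. Each line gives the forward strand of hg38 from 75 bases before to 75 bases after a central base, with the core in capitals. The central base is the peak summit, except in the SESN2 line, where it lies in the core.
gained VTI1A intron chr10:112461024-112461174: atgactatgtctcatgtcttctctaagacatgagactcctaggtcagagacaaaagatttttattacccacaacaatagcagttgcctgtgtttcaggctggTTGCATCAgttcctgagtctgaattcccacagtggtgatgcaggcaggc
gained VNN2 intron chr6:132749158-132749308: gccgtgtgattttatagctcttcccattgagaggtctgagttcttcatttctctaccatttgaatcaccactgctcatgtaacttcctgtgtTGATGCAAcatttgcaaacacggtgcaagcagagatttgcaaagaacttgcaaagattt
gained FAM237A intron chr2:206648084-206648234: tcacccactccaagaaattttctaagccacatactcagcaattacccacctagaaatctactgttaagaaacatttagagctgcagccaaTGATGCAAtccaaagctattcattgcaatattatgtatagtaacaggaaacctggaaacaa
lost upstream of RASGRP1 chr15:38589566-38589716: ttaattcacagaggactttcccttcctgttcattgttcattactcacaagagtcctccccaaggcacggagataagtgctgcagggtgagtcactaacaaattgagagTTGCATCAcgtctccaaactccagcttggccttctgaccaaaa
gained upstream of SESN2 chr1:28249520-28249670: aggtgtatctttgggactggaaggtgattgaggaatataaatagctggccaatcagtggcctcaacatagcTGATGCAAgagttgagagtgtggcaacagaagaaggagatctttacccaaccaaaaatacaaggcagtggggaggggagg
gained upstream of HSPA5 chr9:125243425-125243575: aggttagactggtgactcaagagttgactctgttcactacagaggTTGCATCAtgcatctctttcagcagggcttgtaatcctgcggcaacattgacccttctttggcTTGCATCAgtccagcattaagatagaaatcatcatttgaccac
The HSPA5 line holds 2 cores, and each of the others holds 1. In 5 of these 6 regions the core marked first was followed by C or T on its own strand.

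The AP-1 element TGAGTCA, bound by FOS and JUN dimers, was far more common and differed little between gained and lost regions. Of the 2 strongest gained regions with this element 1 is shown for comparison, with the 2 strongest lost ones, again as the forward strand of hg38 with 75 bases on each side of the summit, with the element in capitals.
gained downstream of PDHA2 chr4:96016736-96016886: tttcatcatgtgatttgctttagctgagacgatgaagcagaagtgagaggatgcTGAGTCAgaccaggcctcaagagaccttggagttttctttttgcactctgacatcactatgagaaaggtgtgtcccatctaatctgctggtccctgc
lost upstream of SLC38A4 chr12:46944250-46944400: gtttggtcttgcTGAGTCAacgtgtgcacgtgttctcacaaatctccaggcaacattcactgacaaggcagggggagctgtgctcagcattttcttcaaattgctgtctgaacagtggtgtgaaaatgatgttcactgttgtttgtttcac
lost upstream of DAOA chr13:104577133-104577283: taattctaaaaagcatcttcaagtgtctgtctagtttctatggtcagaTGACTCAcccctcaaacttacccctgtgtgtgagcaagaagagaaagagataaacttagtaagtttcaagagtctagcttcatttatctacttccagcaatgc
None of these 3 AP-1 regions held a match to the ATF4 core in the printed bases. Among the ATF4 lines above, those at RASGRP1 and HSPA5 also hold an AP-1 element, which is not marked there. An element was credited to a region by its distance from the summit, and the one marked at SLC38A4 lies just outside the lost region itself.

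The DMSO list held 207005 peaks on these chromosomes and the tunicamycin list 187364, with a depth of about 26530000 and 23080000 tags as recovered from each list's lowest background. In EV cells the depth was lower in DMSO (22250000) than in tunicamycin (25130000), and in p42 cells it was higher (29980000 and 25440000), and the tags below are not scaled for it. Every peak's fold enrichment and p-value together gave a whole number of tags at its summit, which is used below as the peak's height. Promoter regions at marker genes did not tell the cell type clearly: all 10 myeloid markers had one, with 42 summit tags in both lists at SPI1 (PU.1), 35 in DMSO and 28 in tunicamycin at MPO and 27 and 25 at LYZ. However, 6 of 7 T cell markers and 5 of 6 B cell markers also had one, among them CD3D with 30 and 29 tags and BLK with 58 and 60 tags. Of 7 epithelial and liver markers 3 had one, and ALB, APOA1, KRT5 and KRT14 had none in either list.

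Of the 237637 regions, 33001 (13.9%) were gained, 57020 (24.0%) were lost and 147616 (62.1%) were shared. The region count thus changed by -11.7% against that of the DMSO list, whose depth was 1.15 times that of the tunicamycin list. With the 187364 strongest peaks of each list, 37953 of 223145 regions (17.0%) were gained, 42528 (19.1%) were lost and the region count changed by -2.47%. Gained and lost regions were mostly weak. Their median height was 6 tags in the list that held them, against 14 in DMSO and 13 in tunicamycin for shared regions, and their median width was 75 bp for gained and 82 bp for lost regions against 224 bp. At a −log10 q of 10 or more in the holding list, 152 gained and 364 lost regions remained. Losses exceeded gains on every chromosome, with a net change from -9.18% on chromosome X to -15.2% on chromosome 13.

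Gained and lost regions lay in nearly the same places. Of gained regions, 13.5% (95% Wilson interval 13.1 to 13.9%) lay within 1000 bp of an annotated start site, and of lost regions 12.5% (12.3 to 12.8%). Introns held 49.9% of gained and 49.7% of lost regions, and intergenic sequence held 33.3% and 34.2%. Shared regions lay at promoters more often, at 22.6% (22.4 to 22.8%). With equal numbers of peaks the promoter shares of gained and lost regions were 13.4% (13.1 to 13.8%) and 13.1% (12.8 to 13.4%), so their intervals overlapped, and at a −log10 q of 10 or more the order turned, at 10.5% and 12.4%.

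Within 100 bp of the summit, the ATF4 core was present in 578 of 33001 gained regions (1.75%, 1.62 to 1.90%), in 380 of 57020 lost regions (0.666%, 0.603 to 0.737%) and in 1272 of 147616 shared regions (0.862%, 0.816 to 0.910%). Its share of gained regions was 2.63 times that of lost regions (95% interval 2.31 to 2.99). With equal numbers of peaks the ratio was 2.62 (2.28 to 3.02). AP-1 was present in 10.3% (9.93 to 10.6%) of gained, 9.05% (8.82 to 9.29%) of lost and 10.9% (10.7 to 11.0%) of shared regions, a ratio of gained to lost of 1.13 (1.09 to 1.18). The NF-kB element, bound by RelA and p50, had a ratio of 1.33 (1.13 to 1.56), and the C/EBP element one of 1.23 (1.08 to 1.40). Their ratios of gained to shared regions were 1.02 (0.895 to 1.17) and 1.06 (0.95 to 1.19). The CRE, bound by CREB and ATF1, was rarer among gained than lost regions, with a ratio of 0.646 (0.435 to 0.957), as was CTCF, the insulator protein's element, at 0.794 (0.673 to 0.936). The XBP1 element had a ratio of 1.03 (0.777 to 1.36). The ERSE, the element of ATF6 in chaperone promoters, was too rare to compare, with an interval from 0.371 to 5.15. RUNX was slightly rarer among gained regions, at 0.922 (0.882 to 0.963), and PU.1, GATA, ISRE and STAT elements had intervals that included 1.

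The elements were searched on both strands as exact letters: TGATGCAA for ATF4, TTGCGCAA or TTGTGCAA for C/EBP, TGTTGCAA for CEBP:AP1, TGAGTCA for AP-1, TGACGTCA for CRE, TGACGTGG for XBP1, CCGGAAGT for ETS, GAGGAAGT for PU.1, TGTGGTT for RUNX, AGATAA for GATA factors, CACGTG for the E-box, GGGCGG for SP/KLF and TTCCNGGAA for STAT, with ERSE, NF-kB, CTCF and ISRE by name. Over all 237637 regions the ATF4 core was present in 0.938%, C/EBP in 1.04%, AP-1 in 10.3% and CTCF in 2.88%.

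A search that named no factor in advance put the same letters first. Of the 25696 8-letter words, counted together with their reverse complements, that occurred near the summits of at least 100 gained and lost regions in all, TGATGCAA had the highest ratio of gained to lost shares. The words ATTGCATC (ratio 2.15) and GATGCAAC (ratio 2.01), ranked 2 and 3, overlap it and extend it by T or C. Read with its next base, the core followed by C had a ratio of 4.34 (3.12 to 6.04) and the core followed by T of 3.88 (3.09 to 4.88), while it was 1.85 (1.41 to 2.43) before A and 1.55 (1.20 to 2.00) before G. Single base changes of the core, counted from 1 at its 5′ end, mostly removed the difference. Of the 24 possible changes, C6T (ratio 1.67, 1.45 to 1.92), C6A (1.66, 1.5 to 1.84) and G2C (1.38, 1.19 to 1.60) kept the highest ratios, and A3T, which makes the CEBP:AP1 word, had a ratio of 1.12 (0.966 to 1.30).

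The core lay at the summits of gained regions. Within 40 bp of the summit there were 101 matches per 10000 gained regions, against 30.2 per 80 bp of sequence 200 to 280 bp away, a ratio of 3.35. The same ratio was 1.68 in shared regions and 0.940 in lost regions. The core was also more frequent in stronger gained regions. Below the 25th percentile of the tunicamycin list it was in 346 of 22095 gained regions (1.57%), between the 25th and 50th in 177 of 10047 (1.76%), between the 50th and 75th in 50 of 849 (5.89%, 4.50 to 7.68%) and above it in 5 of 10. Among lost regions the share did not rise with rank in the DMSO list, at 0.710%, 0.559% and 0.797% in the lower 3 bands and in 0 of 13 regions of the top band (Wilson upper bound 22.8%). The difference was present in each band of base composition: of regions under 40% GC, 2.27% (1.98 to 2.61%) of gained and 0.663% (0.534 to 0.822%) of lost ones held the core, and of regions of 50% GC or more, 1.13% (0.935 to 1.36%) and 0.581% (0.481 to 0.701%). It was also present at promoters, with 58 of 4449 gained (1.30%, 1.01 to 1.68%) and 24 of 7141 lost regions (0.336%, 0.226 to 0.50%).

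**Figure D1:**
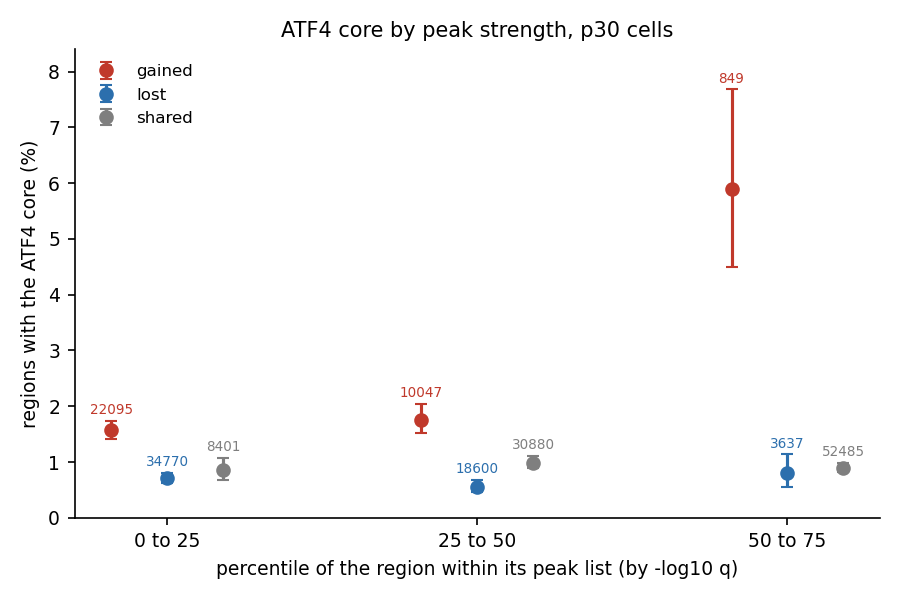
Share of regions with the ATF4 core by percentile of the region in the list that holds it, with 95% Wilson intervals and the number of regions above each point. For shared regions the higher of both percentiles was taken, and the top band, with 10 gained and 13 lost regions, is not drawn. Gained regions reach 5.89% in the band from 50 to 75, where lost regions stand at 0.797%.

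Among the 147616 shared regions, each region's percentile by −log10 q in tunicamycin minus its percentile in DMSO was taken as its rank shift. A shift of 20 points or more upward was found in 13796 regions (9.35%) and downward in 14250 (9.65%), and the shifts had an SD of 15.4 points. The 1272 shared regions with the ATF4 core shifted by a median of 3.49 points. Of these, 234 (18.4%) rose by 20 points or more and 96 (7.55%) fell. Shared regions with the NF-kB element shifted by a median of 2.10 points, with 13.5% rising and 8.32% falling, while those with AP-1 shifted by a median of 0.392 points, with 10.3% rising and 9.86% falling. Of the 1281 risers that reached the 75th percentile in tunicamycin, 46 held the core (3.59%, 2.70 to 4.76%), against 9 of the 1271 fallers that had stood there in DMSO (0.708%, 0.373 to 1.34%).

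The strongest gained regions mostly lay inside introns, away from start sites, and 4 of the 9 reported here, out of the 10 strongest, held the ATF4 core. The strongest of all, in an intron of RIMS2 (a scaffold of synaptic vesicle release, chr8:103652187-103652462), had 27 tags in tunicamycin (exact Poisson interval 17.8 to 39.3) and no peak in DMSO. Next came a region in VTI1A, a vesicle SNARE gene, with 22 tags (13.8 to 33.3), 13.5 kb upstream of ZDHHC6 (chr10:112460997-112461237). An intron region of VNN2, a pantetheinase of neutrophils, had 21 tags (13.0 to 32.1). Both hold the core, as do the regions in FAM237A (17 tags) and 32.6 kb downstream of PLEK (26 tags). A region in P2RX7, the ATP-gated channel, had 23 tags and held the C/EBP element instead. In EV cells all 9 regions also had more tags in tunicamycin than in DMSO, from 5 to 26 at RIMS2 and from no peak to 22 at VNN2. In p42 cells 8 of the 9 did, and the PLEK region had 25 in DMSO and 24 in tunicamycin. P30 cells in DMSO had no peak at any of them, which the call requires, whereas p42 cells in DMSO already had 20 tags at VNN2, 17 at P2RX7 and 25 at PLEK.

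Among shared regions the largest rise was at a promoter of WARS1, the tryptophanyl-tRNA synthetase (chr14:100375464-100375746), from 13 tags (6.92 to 22.2) to 39 (27.7 to 53.3), a shift of 77.4 points. It holds the ATF4 core, and the tags went from 16 to 37 in EV cells and from 16 to 36 in p42 cells. The promoter of RMND5A, a subunit of the CTLH ubiquitin ligase (chr2:86748086-86748268), went from 5 tags (1.62 to 11.7) to 19 (11.4 to 29.7) and also holds the core. An intron of MFN2, the mitochondrial fusion GTPase, went from 7 tags (2.81 to 14.4) to 26 (17.0 to 38.1) without it. Core regions at LINC00824, 689 kb downstream of MYC, and 10.8 kb upstream of KCNG1 went from 6 to 23 and from 6 to 20 tags. Of the 8 largest rises, 4 held the core, 6 had more tags in tunicamycin in EV cells and 7 in p42 cells. The exceptions were the region 5.94 kb upstream of TGFBR1, the TGF-β receptor kinase, where p30 cells went from 8 to 26 tags but EV cells from 15 to 14 and p42 cells from 22 to 12, and the FAM230I region, with 13 and 8 tags in EV cells.

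**Figure D2:**
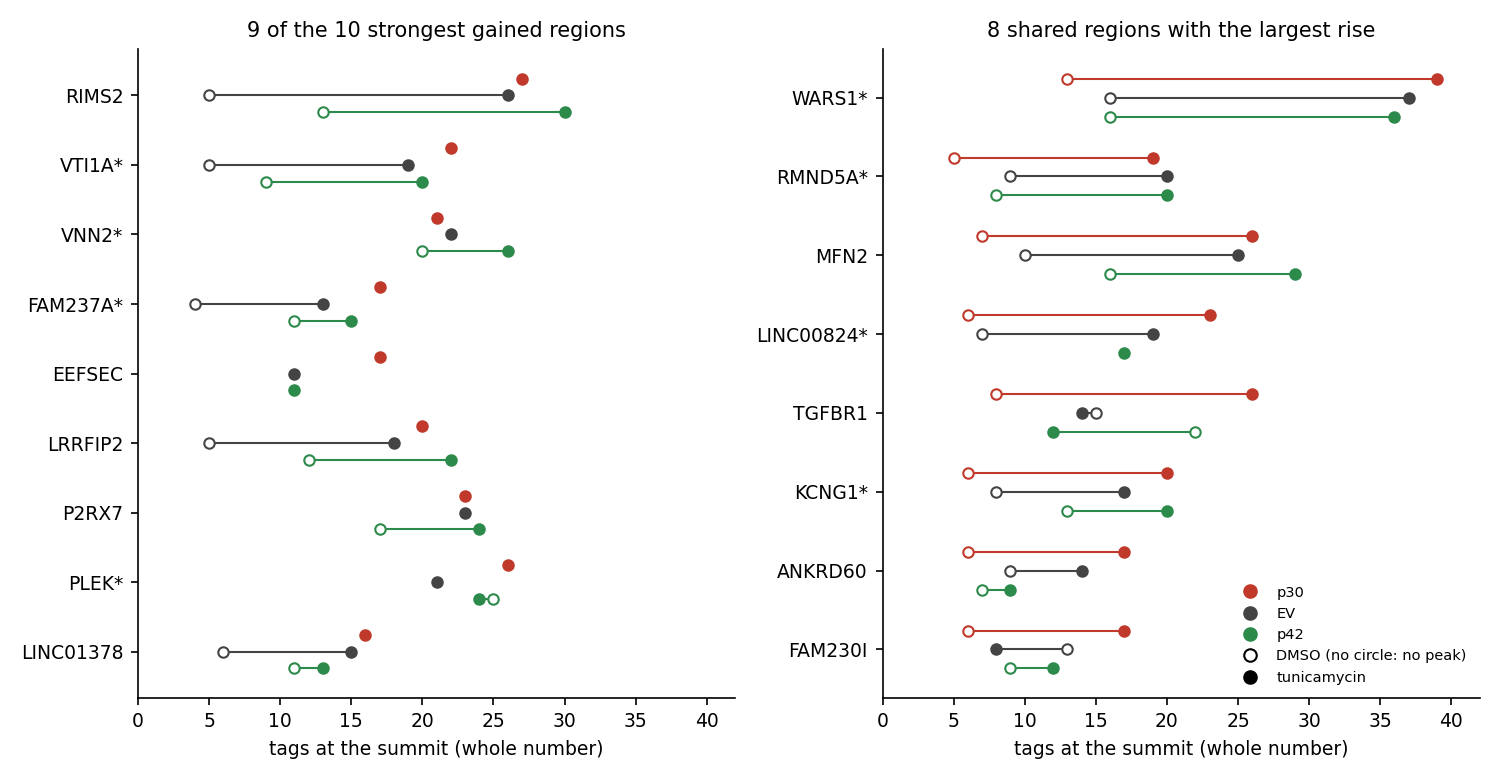
Summit tags (whole numbers) in DMSO (open circles) and tunicamycin (filled circles) of p30 (red), EV (grey) and p42 cells (green) at 9 of the 10 strongest gained regions of p30 cells and the 8 shared regions with the largest rise, named by host or nearest gene. A missing open circle means no peak in DMSO, and a star marks the ATF4 core. Filled circles lie to the right of open ones, or stand without one, at all 9 gained regions in EV cells and at 8 in p42 cells, and TGFBR1 runs the other way in both.

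Lost and falling regions moved in both directions in the other cells. The 10 strongest lost regions, none of which held the ATF4 core, included an intron of N4BP2L2 with 21 tags in DMSO (13.0 to 32.1), an intergenic region nearest to KDR, the VEGF receptor gene, with 17, an intron of GALNT2 with 25 and the promoter of BAIAP3 with 26 (17.0 to 38.1). In EV cells 5 of the 10 had fewer tags in tunicamycin and 4 had more, and in p42 cells 6 had fewer and 3 more, without regard to depth, and several of these differences are of 1 or 2 tags. At BAIAP3 EV cells had 19 and 14 tags, and p42 cells 22 in each condition. The largest falls were an intron of NGLY1, the cytosolic enzyme that strips N-glycans from misfolded proteins, from 21 tags (13.0 to 32.1) to 5 (1.62 to 11.7), an intron of PPIL6 near CD164 from 22 to 5 and the promoter of ST6GALNAC2, a sialyltransferase, from 19 to 5. The NGLY1 region was lower in EV cells (14 and 10 tags) and p42 cells (16 and 9) as well. The PPIL6 region had 11 and 18 tags in EV cells and 10 in each condition in p42 cells. None of the 8 largest falls held the core, and 4 had fewer tags in tunicamycin in EV cells and 4 in p42 cells.

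At HSPA5, which encodes the ER chaperone BiP, 3 of 16 regions within 100 kb of the start site were gained and 4 lost. Over all regions 13.9% were gained and 24.0% lost, and the counts at single loci here and below were not tested against these shares. Of the 2 cores printed above for the region 2.12 kb upstream (chr9:125243409-125243526), the first lies within the region and the second just beyond its end. This region had 17 tags, and EV cells went from no peak to 21 tags and p42 cells from 13 to 20. The other two lay at the end of the gene. An exon region there had 16 tags, with 5 and 17 in EV cells and 8 and 26 in p42 cells, and a region 555 bp beyond the gene end had 10, with 14 in EV and 20 in p42 cells only in tunicamycin. At SESN2, an ATF4-driven inhibitor of mTORC1, 3 of 29 regions in a window of the same size were gained and 6 lost. The core region 9.85 kb upstream (chr1:28249524-28249711) had 19 tags, and EV cells went from no peak to 15 while p42 cells had 16 in both conditions. At ERN1, which encodes IRE1, a promoter region with the core went from 15 to 28 tags, from 11 to 20 in EV cells and stayed at 14 in p42 cells. An intron region of SEL1L, the ERAD adaptor, with the core was gained with 16 tags, and EV cells had 15 in tunicamycin only.

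At the pseudokinase gene TRIB3, with 2 gained and 4 lost of 37 regions, a core region in an intron was gained with 9 tags. In DMSO and tunicamycin EV cells had 7 and 8 tags at this core region and p42 cells 18 and 21. A start-site region went from 10 to 15 and a region 37.8 kb downstream from 6 to 18 tags, where EV cells had 15 in both conditions. At DDIT4, another mTORC1 inhibitor, the region 0.84 kb upstream of the start site went from 31 to 48 tags, with 27 and 44 in EV cells and 38 in both conditions in p42 cells. The stronger region at the start site itself had 55 tags in DMSO and 50 in tunicamycin, a shift of -6.47 points, with 44 and 48 in EV and 50 and 52 in p42 cells. Around ATF4 itself 4 of 42 regions were gained and 8 lost. A region 24.1 kb upstream went from 10 to 15 tags and its neighbour 23.2 kb upstream from 34 to 19, with 31 and 21 in EV cells. At PHGDH, the entry enzyme of serine synthesis, and SARS1, the seryl-tRNA synthetase, promoter regions with the core went from 27 to 45 and from 15 to 27 tags. The PHGDH region had 30 and 37 tags in EV cells but 36 and 33 in p42 cells. SARS1 had 18 and 35 in EV and 21 and 27 in p42 cells. Core regions of GFI1 (29.2 kb upstream) and NFIL3 (4.40 kb downstream of the start site), both transcriptional repressors, went from 7 to 15 and from 10 to 17 tags, and both had more tags in tunicamycin in EV cells (9 and 18, 10 and 16) and p42 cells (12 and 16, 13 and 21). Within 100 kb of DDIT3, which encodes CHOP, 5 of 34 regions were gained and 8 lost and no core region moved. No core region moved at ASNS, the asparagine synthetase gene, either, with 4 gained and 4 lost of 21 regions. Of 40 regions around JUN 1 was gained and 9 were lost, and of 41 around FOS 4 and 4, where 13.9% and 24.0% of all regions were gained and lost.

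Of 19970 protein-coding genes, 802 (4.02%) had a core region that was gained or rose by 20 points within 50 kb of a start site, and 393 (1.97%) had one that was lost or fell. Among the lists, this was 3 of 37 ATF4 target genes (TRIB3, SESN2 and PHGDH) for gains and rises and 1 for losses and falls (SLC7A5), 3 of 18 aminoacyl-tRNA synthetases (SARS1, WARS1 and RARS1) and 1 (WARS1), 3 of 21 sensors and transcription factors (ERN1, EIF2AK1 and NFE2L2) and 1 (NFE2L2), 2 of 19 ERAD and ER export genes (SEL1L and DERL1) and 0, and 1 of 22 chaperones (HSPA5) and 1 (ERO1A). Lists outside the stress response had such genes too: 3 of 27 cell cycle genes (CCND1, CDK6 and RRM2) and 1 (CDK6), and 2 of 30 N-glycosylation genes and 3. Myeloid transcription factors and stem cell regulators had 2 of 26 and 0, and apoptosis genes 1 of 27 and 2. C/EBP and PAR bZIP genes had 1 of 10 and 1, and maturation genes 1 of 26 and 0. None of the 32 NF-kB and inflammatory genes, 20 AP-1 and ATF family genes and 12 oxidative stress genes had one that was gained or rose. At 4.02% of all genes, few would be found in lists of this size.

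All 21 sensors and transcription factors, 22 chaperones, 19 ERAD genes and 18 synthetases had a promoter region, and few of these moved. Of 16311 protein-coding genes with a promoter region, 3010 (18.5%) had a gained one and 4280 (26.2%) a lost one, and the strongest promoter region rose by 10 points or more in 1473 (9.03%) and fell by as much in 1346 (8.25%). Rose and fell here refer to rank. At all 61 list genes that passed 10 points, the counting intervals of the tags in DMSO and tunicamycin overlapped. Of 21 sensors and transcription factors of the unfolded protein response, 3 had a gained promoter region (ATF3, CREB3L2 and EIF2AK1) and 3 a lost one, and the strongest region rose at ERN1, ATF6 (18 to 23 tags) and ATF3 (32 to 41) and fell at XBP1 (45 to 36). Of 22 chaperones and folding enzymes, it rose at ERO1A only (26 to 33 tags) and fell at HSP90B1 (56 to 44), the GRP94 gene, and MANF (51 to 42). Of 19 ERAD and ER export genes it rose at 4 and fell at none: SEC24D, a COPII coat subunit (21 to 35), UBE2J1 (35 to 45), DERL2 (28 to 38) and EDEM2 (30 to 36). In EV cells the same 4 regions had 18 and 31, 29 and 41, 25 and 33, and 24 and 34 tags. In p42 cells SEC24D (17 and 35) and UBE2J1 (37 and 43) had more tags in tunicamycin, while DERL2 (31 and 28) and EDEM2 (32 and 29) had fewer. None of the 18 aminoacyl-tRNA synthetases and none of the 12 oxidative stress genes passed 10 points in their strongest promoter region.

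Of 34 ATF4 target genes with a promoter region, the strongest one rose at 6 and fell at 2. The risers were VLDLR, a lipoprotein receptor (16 to 24 tags), PHGDH (27 to 45), SHMT2 (21 to 29) and PYCR1 (20 to 24), enzymes of serine and proline metabolism, ADM2, a peptide hormone (12 to 16), and TRIB3 (23 to 35), and the fallers were the amino acid transporter SLC38A2 (48 to 35) and JDP2 (27 to 21). Of 27 apoptosis genes it rose at 4 and fell at none, with the death receptor gene TNFRSF10B going from 29 to 42 tags (25 and 36 in EV, 32 and 42 in p42 cells) and GADD45G from 18 to 23. Of 31 NF-kB and inflammatory genes with a promoter region it rose at 7 and fell at 2. CCL3 went from 15 to 22 tags, TNF from 12 to 15, CXCL8 from 17 to 23, NFKBIA from 39 to 47 and TLR2 from 19 to 24. CCL4, the neighbour of CCL3 in the chemokine cluster, went from 25 to 13 and CXCL2 from 38 to 33. IL12B (10 to 12) and CCL5 (8 to 10) were the other risers. In EV cells the shift had the other sign at CCL4, with 15 and 21 tags, TLR2, with 23 and 21, CXCL2, CXCL8, IL12B and NFKBIA. Of 20 AP-1 and ATF family genes it rose at 3 (ATF3, MAFG and MAFK) and fell at 4, with MAF going from 18 to 12 tags and BATF3 from 34 to 24, and of 10 C/EBP and PAR bZIP genes it rose at CEBPA only, with 44 and 45 tags. Of 30 N-glycosylation genes, whose first enzyme DPAGT1 is the target of tunicamycin, it rose at DPM1 (17 to 22) and fell at MAN2A1 (51 to 40).

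Among 26 myeloid transcription factors and stem cell regulators it rose at 4 and fell at 4, and 11 had a gained and 10 a lost promoter region. HOXA9 went from 33 to 47 tags and its cofactor MEIS1 from 8 to 14, against 34 and 37 and 12 and 13 in EV cells, and IRF8 from 18 to 12 and ERG from 29 to 23. Among 26 maturation genes it rose at 5 and fell at 4. KIT, the stem cell factor receptor, went from 29 to 19 tags and FLT3 from 21 to 13, where EV cells had 28 and 32 and 25 and 20. The granule protein genes AZU1 and ELANE rose in rank on 6 and 9 and on 7 and 8 tags. Among 27 cell cycle genes it rose at 3 and fell at CDK2 (29 to 18).

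Gained regions were found at the 3′ ends of many ER genes. After the regions at the ends of HSPA5 and HERPUD1 had been seen, each protein-coding gene was given a window from 2 kb before to 5 kb beyond its annotated end. Both genes are counted in their lists below, so their hits are not independent of the choice of this window. A gained region lay there in 1976 of 19970 genes (9.89%) and a lost one in 3408 (17.1%). Of 22 chaperones and folding enzymes 9 had a gained region there (40.9%, 23.3 to 61.3%): HSPA5, HYOU1, PDIA3, PDIA4, PDIA6, DNAJB9, DNAJB11, DNAJC3 and SIL1. A lost one was found at 5. Of 19 ERAD and ER export genes 6 had a gained region (31.6%, 15.4 to 54.0%), namely HERPUD1, SEL1L, SYVN1, SEC61A1, EDEM3 and UFM1, and 3 a lost one. Of 18 aminoacyl-tRNA synthetases 5 had a gained region (27.8%, 12.5 to 50.9%), namely WARS1, SARS1, YARS1, IARS1 and AARS1, and 2 a lost one. Of 37 ATF4 target genes 6 had a gained region (16.2%, 7.65 to 31.1%) and 10 a lost one, and of 21 sensors and transcription factors 1 had a gained and 1 a lost one. Of the other lists, 6 of 27 apoptosis genes (22.2%), 5 of 26 myeloid transcription factors and stem cell regulators (19.2%) and 2 of 12 oxidative stress genes (16.7%) had a gained region. So did 3 of 20 AP-1 and ATF family genes, 4 of 32 inflammatory genes and 3 of 26 maturation genes. The lowest were 2 of 27 cell cycle genes, 2 of 30 N-glycosylation genes and 0 of 10 C/EBP and PAR bZIP genes. Genes whose strongest promoter region stood at the 75th percentile or more in DMSO had one in 1283 of 12518 (10.2%). In an equal window at the start of the gene, 2 of the 22 chaperones and 2 of the 19 ERAD genes had a gained region in p30 cells, against 2877 of 19970 genes in all. In EV cells 7 of 22 chaperones had one at the start and 7 at the end, and with equal numbers of peaks 5 had one at the start and 4 at the end, while the ERAD genes had 1 of 19 at the start. In p42 cells 4 of 22 chaperones and 0 of 19 ERAD genes had one at the start (Wilson upper bound 16.8%).

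In EV cells 7 of 22 chaperones and 9 of 19 ERAD genes had a gained region at their end (of all genes 13.5%), and in p42 cells 10 and 8 did (of all genes 10.9%). Of 26 myeloid transcription factors and stem cell regulators 9 had one in EV cells and 7 in p42 cells. All 5 such genes of p30 cells were among those of EV cells. With equal numbers of peaks the EV chaperones came to 4 of 22 against 11.3% of all genes, while those of p30 cells stayed at 9 of 22 against 11.2% and those of p42 cells at 10. The synthetases had 2 of 18 in EV and 3 of 18 in p42 cells. All 6 ERAD genes of p30 cells were also among those of EV cells and 4 were among those of p42 cells, against 33.1% and 23% of the 1976 genes. Of the 9 chaperones 4 were also among those of EV cells and 5 among those of p42 cells, and of the 5 synthetases 1 and 3. The regions were low. HYOU1 had 17 tags 2191 bp beyond its end (9.90 to 27.2), with 8 and 12 in EV cells, and PDIA3 had 18 tags 1767 bp beyond (10.7 to 28.4), with 15 in p42 cells only in tunicamycin. HERPUD1, an ERAD scaffold, had 11 tags 2165 bp beyond its end (5.49 to 19.7), with 13 in EV and 19 in p42 cells, each in tunicamycin only. WARS1 had 3 regions of 9, 9 and 7 tags within 1503 bp of its end. DDIT4, among the ATF4 targets, had 9 tags 3041 bp beyond (4.12 to 17.1), with 11 in EV and 12 in p42 cells, each in tunicamycin only. The rest of the 3 lists had between 5 and 16 tags, and the counting intervals of most reach below 5.

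**Figure D3:**
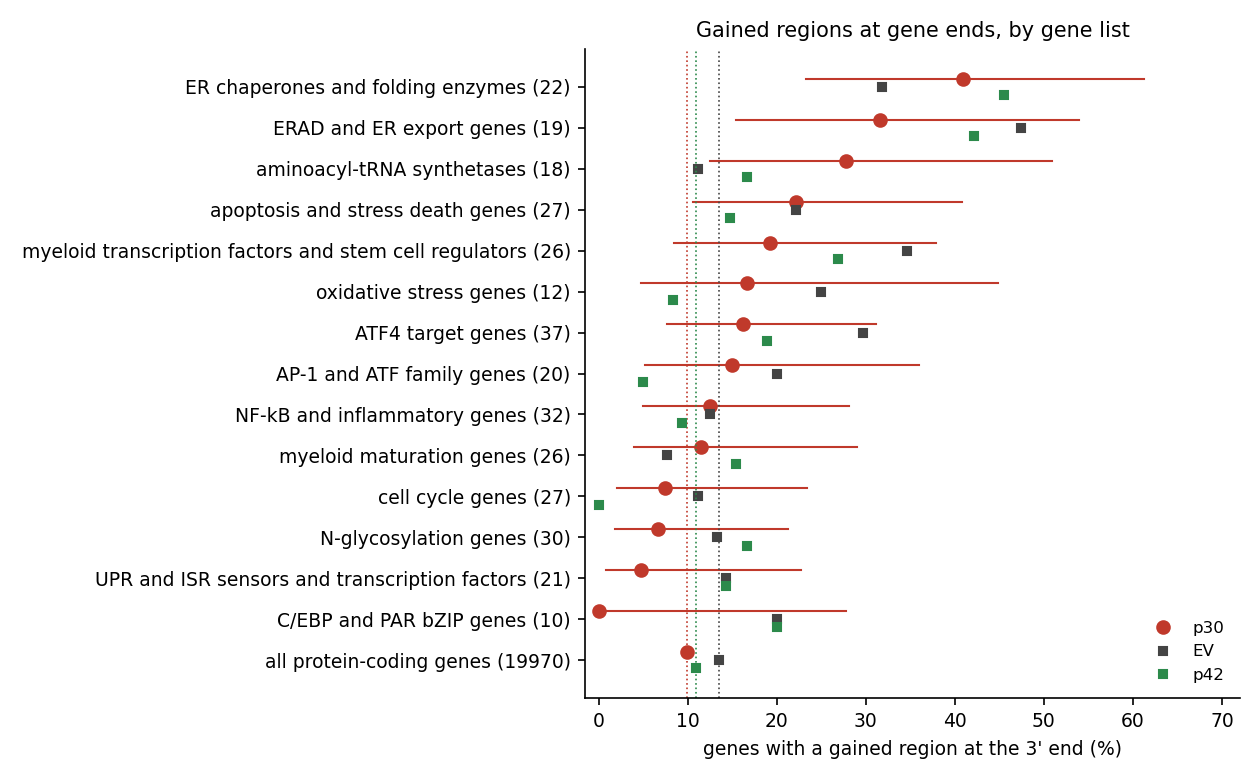
Percentage of the genes in each list (number of genes in brackets) with a gained region between 2 kb before and 5 kb beyond the gene's 3′ end, in p30 (red circles, 95% Wilson intervals), EV (grey squares) and p42 cells (green squares), with the value over all protein-coding genes as dotted lines. Chaperones (40.9%) and ERAD genes (31.6%) stand above the 9.89% of all genes in p30 cells, and above the dotted lines in EV and p42 cells too.

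Some neighbourhoods gained several regions at once. Within 50 kb of FGFR1, a receptor tyrosine kinase, 13 regions were gained and 2 lost, and at its neighbour LETM2 8 and 0, and around ETV1, an ETS factor, 10 and 0. At the HOXB cluster, HOXB3 had 11 gained and 2 lost regions and HOXB6, HOXB7, HOXB8 and HOXB9 each had 10 and 2, which are largely the same regions in overlapping windows. The largest excess of losses fell on long genes: CSMD3 (19 gained, 50 lost), GPC5 (47 and 74), GPC6 (35 and 61) and DAB1 (26 and 50), all over 1000 kb, while RERE, at 497 kb, had 8 and 31. None of the 8 genes with the largest excess of losses had a gained core region.

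Most single gained or lost regions were not repeated in the other cells, and gained regions with the core were repeated more often. Of all gained regions of p30 cells, 17.5% were also gained in EV cells (17.0 to 17.9%), 12.7% were lost there and 53.7% had no EV peak at all. Of lost regions, 14.8% were also lost in EV cells and 13.5% were gained. With equal numbers of peaks in all 4 lists the gained regions came to 15.1% gained and 14.8% lost, so for the whole set the direction was hardly shared. In p42 cells, whose DMSO list is the deepest of the 6, 9.74% of gained regions were gained and 16.7% lost. Gained regions with the core were also gained in EV cells in 186 of 578 (32.2%, 28.5 to 36.1%) and lost in 46 (7.96%), against 17.2% and 12.8% of gained regions without it. Lost regions with the core were also lost in EV cells in 60 of 380 (15.8%, 12.5 to 19.8%) and in p42 cells in 62 (16.3%, 12.9 to 20.4%), against 14.8% and 19.2% of all lost regions. At the 50th percentile or more of the tunicamycin list, 38 of 55 gained core regions were gained in EV cells (69.1%, 56.0 to 79.7%), 14 were shared and 0 were lost (Wilson upper bound 6.53%), while of 804 without the core 24.4% were gained and 12.2% lost. In p42 cells 15 of these 55 were gained, 39 already had a peak in both conditions and 0 were lost. Among the 46 strong risers with the core, 38 of 44 ranked in EV cells and 33 of 44 ranked in p42 cells also shifted upward, against 61.5% and 60.7% of strong risers without it. Over all shared core regions the median shift was 3.49 points in p30 cells, 2.63 in EV and 0.155 in p42 cells. Whether these shifts differ between the cells could not be tested with a single pooled list per condition.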

How the data were processed

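ATAC-seq libraries were made from 12 samples (2 replicates in each of 6 conditions, 50000 nuclei each), and nothing in the labels says that replicates came from separate cultures. The submitters' processing notes name Trim Galore 0.6.6, Bowtie2 2.4.4, Picard, MACS2 and hg38. The deposited lists, 1 per condition, hold narrow peaks that the authors called on pooled replicates. Per sample depth and any Tn5 offset were not given in the sources used here. The deposited lists hold each peak's fold enrichment (a ratio of summit pileup to local background, each plus 1), its −log10 p and −log10 q, a score that is 10 times the −log10 q, and the summit position. The lowest −log10 q was 1.3 in each list.

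Regions were merged and annotated in Python 3.11.15 with GENCODE release 44, and all peaks lie within the chromosome lengths of hg38. A promoter region lies within 1000 bp of a start site, and other regions were placed by their summit. The fold and −log10 p were solved for a whole number of tags, which succeeded in 100% of peaks (tolerance 0.002) and in 1.02 to 1.46% once the p was perturbed. Depth is the lowest background times a genome of 2700000000 bp over the shortest peak. Shares have 95% Wilson intervals, ratios of shares log-normal ones and tags exact Poisson ones. Reads carry no molecular identifiers, so all cover counting error only. The steps were tested on simulated data.

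The members, gene lists, elements and rules were chosen with earlier results of these data known. Genes were named by fixed rules: the 10 strongest gained and lost regions, the 8 largest rank shifts each way among strong regions, the 8 genes with most net gains and losses within 50 kb, list genes with a changed promoter, and regions within 100 kb of 15 stress and AP-1 genes. The gene ends, the 8-letter words, the changes of the core, the ratios of shares, the difference of promoter shares, the core regions near genes and the SESN2 and HSPA5 sequences were chosen after the data were seen. Of the regions these rules name, 1 gained region and 3 sequences are not reported here. Alternatives covered equal numbers of peaks, thresholds, overlap, windows and rankings.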

Additional observations from a re-analysis of the deposited data

Results flagged for a closer look

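Among the 16 shared regions with the largest rank shifts in p30 cells, 4 shifted the opposite way in both EV and p42 cells, a difference that was not tested. The region 5.94 kb upstream of TGFBR1 rose by 70.7 points in p30 cells, against -9.81 in EV and -31.4 in p42 cells. The PPIL6 region near CD164 had a shift of -74.2 points, against 30.9 in EV and 16.2 in p42 cells. The ST6GALNAC2 promoter had a shift of -72.9 points, against 10.4 and 27.0, and the region near COL11A1 one of -67.1, against 4.19 and 10.9. None of the 4 held the ATF4 core, and in p30 cells each rests on 5 to 8 tags in its weaker list.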

How the results depend on the processing

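No paired analysis was possible because the 2 replicates of each condition were pooled before the peaks were called, and for the same reason no replicate could be left out. Of 81 recomputed values 1 reversed and 44 moved by more than 1.5 times (counts) or beyond their interval. With a minimum −log10 q of 5 for the holding list there were 4819 gained and 9684 lost regions (net -3.86%), a minimum of 10 gave 152 and 364 (net -0.281%), and keeping in each list only peaks of 10 or more gave 7716 and 13512 (net -7.68%). The net change was -2.47% with equal numbers of peaks and -8.95% with a depth-scaled threshold. A promoter of 500 bp held 8.57% of gained and 7.98% of lost regions, and one of 2500 bp 21.9% and 21.2%. The gained share was 15.3% and 10.5% at the q limits of 5 and 10, and the lost share was 13.1% with equal numbers. The difference of gained minus lost promoter shares, 0.958 percentage points over all regions, was 0.33 with equal numbers, 2.51 at a q limit of 5 and turned to -1.84 at a limit of 10 (gained 10.5%, lost 12.4%), a comparison chosen after the data were seen. The ATF4 core was in 1.12% of gained and 0.330% of lost regions within 50 bp (ratio 3.39), in 2.47% and 1.26% within 200 bp (ratio 1.96), and in 2.84% of gained regions at a q limit of 5 (ratio 4.36). AP-1 was in 7.24% and 6.10% within 50 bp (ratio 1.19), 13.6% and 12.5% within 200 bp (ratio 1.09), 11.1% of gained regions at a q limit of 5 (ratio 1.25), and 10.9% and 9.49% of distal regions. Ranked among all regions of a list, 9129 regions rose by 20 points and 20600 fell. Ranked by summit tags, 9308 rose and 9318 fell. The share of gained regions also gained in EV cells was 15.1% with equal numbers and 23.3% at a q limit of 5, and that of lost regions also lost was 17.5% and 17.6%. The cause of these moves was not tested. The lists hold only peaks with a −log10 q of 1.3 or more, so a region called gained can have been just under that limit in DMSO, and a lost one just under it in tunicamycin.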
